A study of Mus musculus with 8 samples.

Results

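YAP and SRF are transcriptional regulators that link the actin cytoskeleton and cell attachment to gene expression, and the 9 genes described here are known targets or partners of these regulators. They were *Ctgf* (now *Ccn2*), *Cyr61* (now *Ccn1*), *Thbs1*, *Vcl*, *Ankrd1*, *Axl*, *Amotl2*, *Lats2* and *Tead1*, which the table lists as CTGF, CYR61, THBS1, VCL, ANKRD1, AXL, AMOTL2, LATS2 and TEAD1. They were taken by name, and no threshold on a measured value entered the choice. Earlier results of these data were known when these genes and the lists below were chosen. All 9 names had a row among the 18132 rows of the expression table, and 8 of the 9 were among the 12691 rows that were tested, since *Tead1* stayed below the background level in every group. Mouse embryonic fibroblasts (MEFs) are connective tissue cells grown from dissected embryos. The MEFs here were primary cells of the C57BL/6J strain, taken at day 13.5 postcoitum from wild type (WT) embryos or from embryos lacking *Btg1*, a gene of the BTG/TOB family of antiproliferative proteins. Each genotype was either left untreated, in DMEM with Glutamax (0 hours of starvation), or kept for 16 hours in DMEM without glutamine. The 4 groups were therefore untreated WT, starved WT, untreated *Btg1*-/- and starved *Btg1*-/-, with 2 Illumina MouseRef-8 v2 arrays each. The methods pair normal medium with heat-inactivated serum and glutamine-free medium with dialyzed serum, so the loss of glutamine and the change of serum cannot be told apart in any comparison of starved with untreated cells.

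In the Hippo pathway the kinases LATS1 and LATS2 phosphorylate YAP and its relative TAZ and hold them outside the nucleus. When this brake is low, as in spread cells under tension, YAP enters the nucleus and binds DNA through transcription factors of the TEAD family. Serum response factor (SRF) works with MRTF coactivators, which are released when globular actin is used up by filament assembly, and drives genes of the contractile and adhesive apparatus. Products of both programmes include matricellular proteins, which are secreted into the matrix to signal through integrins and growth factors rather than to bear load. In cultured fibroblasts these programmes accompany spreading, serum stimulation and contractility.

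Promoter windows of 300 bases, from 250 before to 50 after the annotated start, came from RefSeq on the mouse build GRCm38.p6 and matched 6 of the 9 genes with 7 entries, *Lats2* having 2. *Ctgf*, *Thbs1* and *Tead1* had no entry. The sequences are shown because each holds the letters CATTCC, the core motif of TEAD factors, on 1 of the strands. They run 5′ to 3′ on the strand of the gene, with motif matches in capitals. For *Cyr61* the run is chr3:145649986-145650235 on the minus strand, for *Vcl* it is chr14:20929148-20929382 on the plus strand, and for *Ankrd1* it is chr19:36119845-36120094 on the minus strand, all upstream of the gene. For *Amotl2*, *Axl* and *Lats2* only the surrounding 30 bases are given, at chr9:102717727-102717756 on the plus strand, chr7:25788949-25788978 on the minus strand and chr14:57746102-57746131 on the minus strand.
Cyr61: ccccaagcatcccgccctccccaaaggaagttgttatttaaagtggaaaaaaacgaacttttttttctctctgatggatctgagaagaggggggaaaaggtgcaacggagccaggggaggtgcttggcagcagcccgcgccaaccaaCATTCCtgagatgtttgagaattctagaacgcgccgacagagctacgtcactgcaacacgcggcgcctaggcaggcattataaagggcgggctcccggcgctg
Vcl: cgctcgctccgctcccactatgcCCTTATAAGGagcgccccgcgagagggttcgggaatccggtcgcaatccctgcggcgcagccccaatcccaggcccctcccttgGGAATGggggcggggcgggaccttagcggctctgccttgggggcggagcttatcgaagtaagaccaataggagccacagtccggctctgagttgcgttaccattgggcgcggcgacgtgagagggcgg
Ankrd1: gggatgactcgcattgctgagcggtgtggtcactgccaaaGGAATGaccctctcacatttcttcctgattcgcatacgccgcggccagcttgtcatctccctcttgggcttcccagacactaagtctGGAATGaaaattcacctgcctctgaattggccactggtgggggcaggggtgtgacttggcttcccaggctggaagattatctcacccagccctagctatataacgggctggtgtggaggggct
Amotl2: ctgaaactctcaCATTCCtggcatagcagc
Axl: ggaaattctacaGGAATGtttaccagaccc
Lats2: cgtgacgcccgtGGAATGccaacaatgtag

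Counted from the annotated start, the match lay at -103 to -98 in *Cyr61*, at -143 to -138 in *Vcl*, at -65 to -60 in *Amotl2* and at -233 to -228 in *Axl*. The *Amotl2* window had 0 bases outside the annotated gene, so its match lies within the gene. *Ankrd1* had 2 matches, at -210 to -205 and at -123 to -118, and *Lats2* had 1 inside the transcribed part, at 5 to 10 after the first of its 2 starts. The motif was searched on both strands, and 14.7% of all 32851 windows of the same length held it, as did 12.7% of the windows of tested rows. The CArG box, the motif bound by SRF, was found once, at -227 to -218 in *Vcl* (the first run of capitals in its sequence), and 1.63% of all windows held it. No match of CATTCC shared bases with the CArG box. These matches describe letters within short windows and do not show that a factor was bound.

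**Figure D1:**
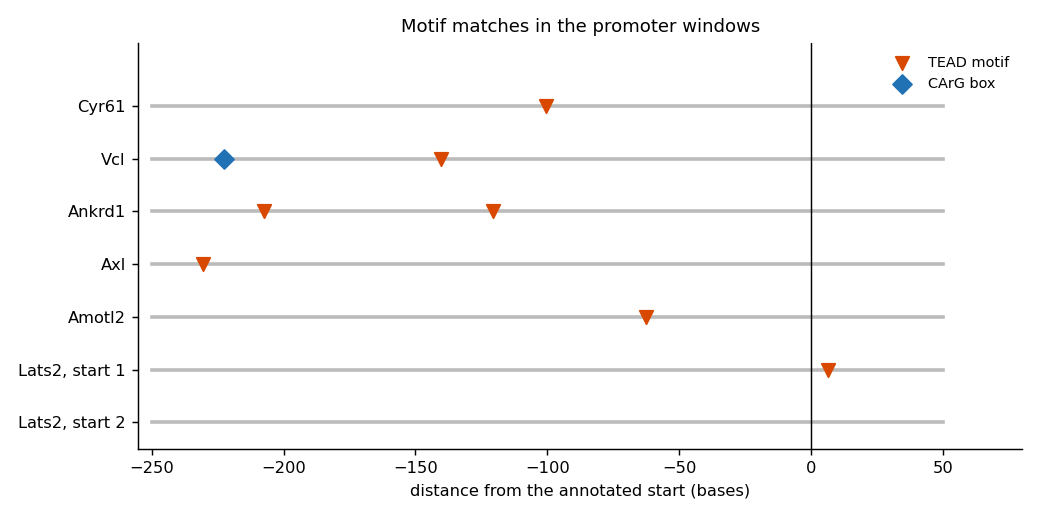
Position of motif matches in the 7 promoter windows of 6 genes, with distance from the annotated start in bases on the x axis and 1 grey line per window. Triangles mark the TEAD motif and the diamond the CArG box, and 6 of the 7 windows hold a TEAD motif.

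Array values are log2 levels after RMA normalization, and levels below 3 count as background in the methods. Replicate arrays of a group correlated at r = 0.981 to 0.987 over the 12691 tested rows, and the medians of the 8 arrays over all rows lay between 3.78 and 3.81. The *Btg1* row stood at 11.17 to 12.40 on the WT arrays and at 9.16 to 10.45 on the *Btg1*-/- arrays, a difference of -1.94 ± 0.10 (SE, limma) between the untreated groups with an adjusted p of 5.52e-05, so the row was lower but not at background. Neither labels nor methods place its probe relative to the deleted part. All 11 fibroblast markers in the table were above background in every group. Of 14 macrophage markers, 11 were above background in all groups and *Ptprc* was below it on every array. The log2 of the summed levels of the 14, unlogged before adding, was 10.89 to 11.34 in WT cells. It was 13.66 to 13.72 in *Btg1*-/- replicate 1 and 11.97 to 12.08 in *Btg1*-/- replicate 2. *Eif2s3y*, a Y-linked gene, read 9.49 to 9.81 in WT replicate 2 and 1.94 to 3.25 on all other arrays, so Y-linked expression was seen in 1 of the WT replicates only, before and after starvation. The labels call the replicates biological duplicates.

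The secreted matricellular products came first. *Thbs1* encodes thrombospondin-1, which binds CD36 and CD47 and activates latent TGF-beta. Its log2 level was 11.13 and 11.28 in untreated WT, 9.28 and 9.55 in starved WT, 11.80 and 11.51 in untreated *Btg1*-/-, and 10.71 and 10.40 in starved *Btg1*-/- cells. The arrays of the 4 groups did not overlap, with untreated *Btg1*-/- highest and starved WT lowest. Starvation lowered *Thbs1* by 3.47-fold in WT cells, a log2 difference of -1.79 ± 0.15 (SE) with a limma adjusted p of 5.25e-05. In *Btg1*-/- cells it fell 2.15-fold, a log2 difference of -1.10 ± 0.15 with an adjusted p of 0.00135 in limma.

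*Cyr61* encodes a CCN family protein that signals through integrins and is an early target of both YAP and SRF. The *Cyr61* row read log2 levels of 10.64 and 10.58 in untreated WT, 9.82 and 9.51 in starved WT, 10.61 and 10.43 in untreated *Btg1*-/-, and 9.88 and 9.68 in starved *Btg1*-/- cells. The starved arrays lay below the untreated ones in both genotypes, and the genotypes overlapped in each condition. The log2 difference of starved from untreated was -0.95 ± 0.13 in WT cells (1.93-fold lower, limma adjusted p = 0.000691) and -0.74 ± 0.13 in *Btg1*-/- cells (1.67-fold lower, limma adjusted p = 0.00500).

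*Ctgf* encodes connective tissue growth factor, the CCN family member most used as a readout of YAP activity. On the log2 scale it read 14.72 and 14.62 in untreated WT, 14.42 and 14.39 in starved WT, 14.52 and 14.72 in untreated *Btg1*-/-, and 14.71 and 14.74 in starved *Btg1*-/- cells. Starved WT arrays lay below all others, while the other 3 groups overlapped. The log2 difference in WT cells, -0.27 ± 0.09, missed the threshold with a limma adjusted p of 0.0525, and the difference in *Btg1*-/- cells was 0.10 ± 0.09 with an adjusted p of 0.489. The *Ctgf* row was within 0.54 of 14.93, the highest value in the table, on every array, and the part that a ceiling of the scale has in its narrow range was not tested. With arrays left out the *Ctgf* difference in WT cells ranged from -0.32 to -0.22. Whether it passed the threshold of 0.05 changed with the arrays left out, also with *Btg1*-/- arrays that are no part of this comparison.

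*Vcl* encodes vinculin, which couples talin at integrins to actin filaments. Its log2 level was 13.44 and 13.52 in untreated WT, 11.79 and 11.92 in starved WT, 13.31 and 13.65 in untreated *Btg1*-/-, and 12.31 and 12.47 in starved *Btg1*-/- cells. Untreated cells of the genotypes overlapped, and all starved arrays lay below them, starved WT lowest. *Vcl* fell by 1.62 on the log2 scale in WT cells (SE 0.12, 3.08-fold, limma adjusted p = 3.31e-05) and fell by 1.09 in *Btg1*-/- cells (SE 0.12, 2.13-fold, limma adjusted p = 0.000609).

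*Ankrd1* encodes a nuclear and sarcomeric ankyrin repeat protein that is induced by stretch in muscle and by YAP in many cells. The *Ankrd1* row read log2 levels of 11.04 and 11.23 in untreated WT, 10.36 and 10.11 in starved WT, 11.97 and 11.88 in untreated *Btg1*-/-, and 11.25 and 10.81 in starved *Btg1*-/- cells. Untreated *Btg1*-/- arrays were highest, starved WT arrays lowest, and untreated WT overlapped with starved *Btg1*-/-. The starvation difference was -0.90 ± 0.15 in WT cells (limma adjusted p = 0.00195) and -0.89 ± 0.15 in *Btg1*-/- cells (limma adjusted p = 0.00412), 1.87-fold and 1.86-fold lower.

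*Axl* encodes a receptor tyrosine kinase for Gas6. Log2 levels of *Axl* were 13.28 and 13.46 in untreated WT, 13.58 and 13.62 in starved WT, 13.10 and 13.32 in untreated *Btg1*-/-, and 13.21 and 13.55 in starved *Btg1*-/- cells. The starved WT arrays lay above the untreated WT arrays, and the *Btg1*-/- groups overlapped. Neither difference passed the test: it was 0.23 in WT cells (95% interval -0.05 to 0.51) and 0.17 in *Btg1*-/- cells (-0.11 to 0.46), with limma adjusted p of 0.227 and 0.413.

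*Amotl2* encodes an angiomotin family protein that binds YAP and favours its retention outside the nucleus, and is itself a YAP target. Its log2 values were 7.90 and 8.08 in untreated WT, 7.40 and 7.34 in starved WT, 8.11 and 7.72 in untreated *Btg1*-/-, and 7.56 and 7.54 in starved *Btg1*-/- cells. Starved arrays lay below untreated ones in both genotypes. The log2 difference was -0.62 ± 0.17 in WT cells (limma adjusted p = 0.0239) and -0.36 ± 0.17 in *Btg1*-/- cells, where it missed the threshold (limma adjusted p = 0.189, 95% interval -0.74 to 0.01). The WT call was lost when untreated WT replicate 1 (adjusted p = 0.0562), untreated WT replicate 2 (0.142), starved WT replicate 1 (0.0939) or starved WT replicate 2 (0.111) was left out, and when both arrays of WT replicate 2 were (0.322).

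*Lats2*, the kinase of YAP, read 4.74 and 3.26 in untreated WT, 4.16 and 4.77 in starved WT, 3.88 and 4.42 in untreated *Btg1*-/-, and 4.01 and 4.06 in starved *Btg1*-/- cells on the log2 scale. These levels were close to background, and the spread of untreated WT (SD 1.05, n = 2) exceeded every difference of group means. *Lats2* changes of up to 1.57 upward or 0.63 downward in WT cells lay within the 95% interval of its starvation difference, 0.47 ± 0.49. *Tead1*, a DNA-binding partner of YAP, read 1.72 to 2.71 over the 8 arrays, below background throughout, and was not tested. Of its family, *Tead2* read 9.90 to 10.60, *Tead4* 4.26 to 5.81 and *Tead3* 2.40 to 4.27 over the arrays.

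**Figure D2:**
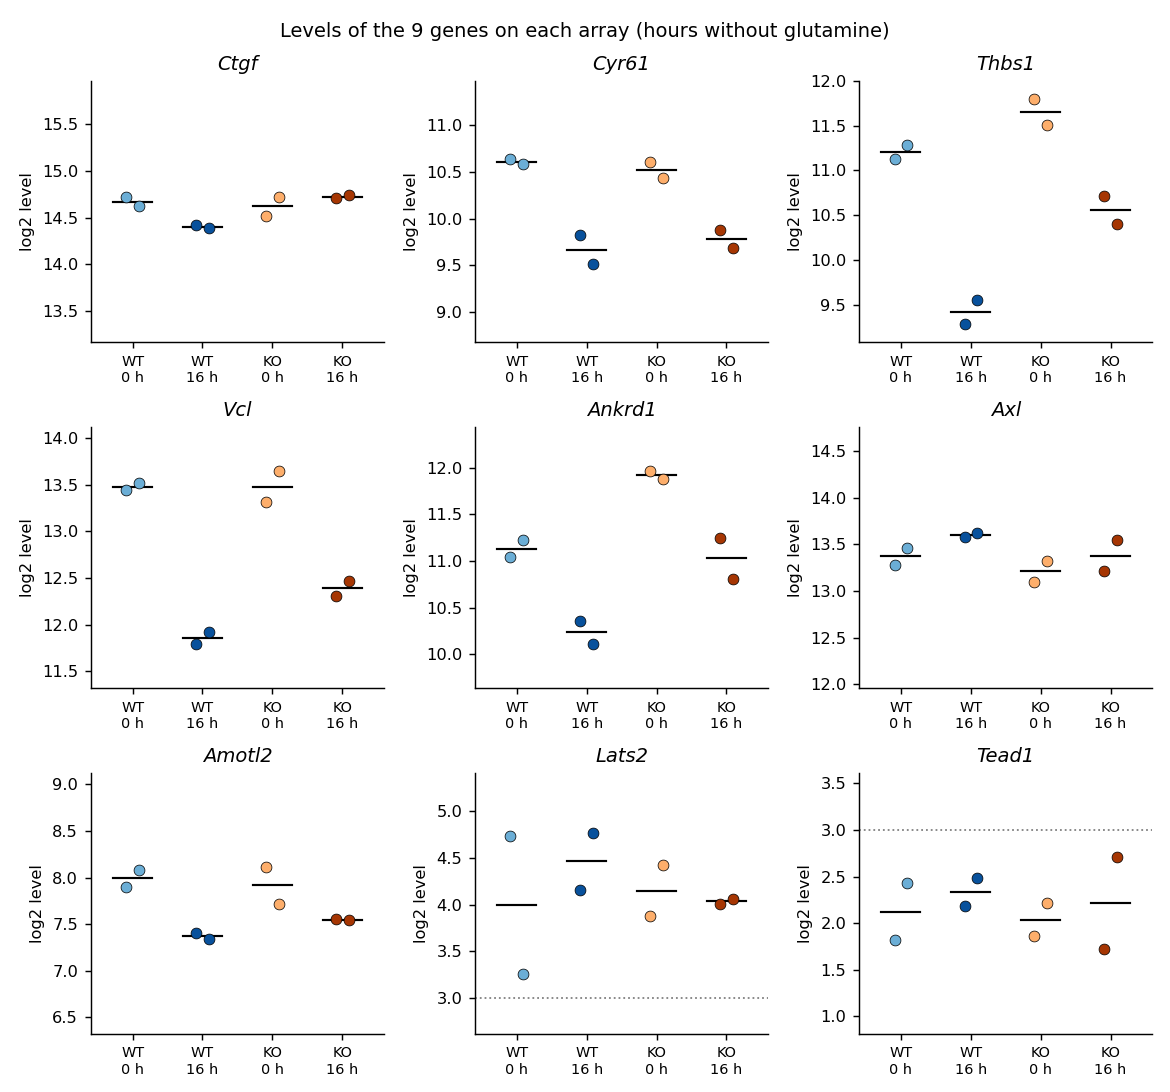
Log2 level of each of the 9 genes (y axis, own range for each gene, all at least 2.8 wide) in WT and *Btg1*-/- cells (marked KO) after 0 and 16 hours without glutamine, with 1 point per array and a line at the group mean (n = 2). *Thbs1*, *Vcl*, *Cyr61* and *Ankrd1* are lower after 16 h in both genotypes, and the dotted line at 3 is the background level, under which *Tead1* stays.

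Counted together, 5 of the 8 tested genes fell in starved WT cells and 0 rose, where 11.6% of all tested rows fell and 13.1% rose. The 5 were *Thbs1*, *Vcl*, *Cyr61*, *Ankrd1* and *Amotl2*. In *Btg1*-/- cells 4 fell, *Thbs1*, *Vcl*, *Cyr61* and *Ankrd1*, and 0 rose, against 7.24% and 8.44% of all rows. The median log2 difference over the 8 was -0.76 in WT and -0.55 in *Btg1*-/- cells, while that of all tested rows was 0.03 in each. Starved arrays did not overlap with untreated ones, on the lower side, for 6 genes in WT cells, against 29.6% of rows, and for 5 in *Btg1*-/- cells, against 25.5%. On the higher side this held for *Axl* in WT cells, against 33.4% of rows. Leaving out an array leaves its group with 1, which is then assumed to vary like the other groups. On that assumption *Thbs1*, *Vcl* and *Cyr61* passed the test in both genotypes with any single array left out and without both arrays of either WT replicate 2 or *Btg1*-/- replicate 1. *Ankrd1* did so too except in WT cells without both arrays of WT replicate 2, where its difference was -0.68 with a limma adjusted p of 0.103.

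Fibroblast markers moved with the same comparison. Of the 11 tested, 9 fell in starved WT and 4 in starved *Btg1*-/- cells, with median log2 differences of -1.28 and -0.63, and none rose, where 11.6% and 7.24% of all rows fell. The log2 of their summed unlogged levels was 15.11 and 15.24 in untreated WT, 14.19 and 14.48 in starved WT, 15.26 and 15.41 in untreated *Btg1*-/-, and 14.79 and 15.01 in starved *Btg1*-/- cells. In samples of whole cultures, fewer cells of a type and less RNA per cell cannot be told apart, and the part of this shift in the falls of *Thbs1*, *Vcl*, *Cyr61*, *Ankrd1* and *Amotl2* was not tested. Without untreated *Btg1*-/- replicate 1 or without both arrays of *Btg1*-/- replicate 1, 1 fibroblast marker was called in *Btg1*-/- cells, 2 were without either starved *Btg1*-/- array, and 5 were called in WT cells without both arrays of WT replicate 2.

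**Figure D3:**
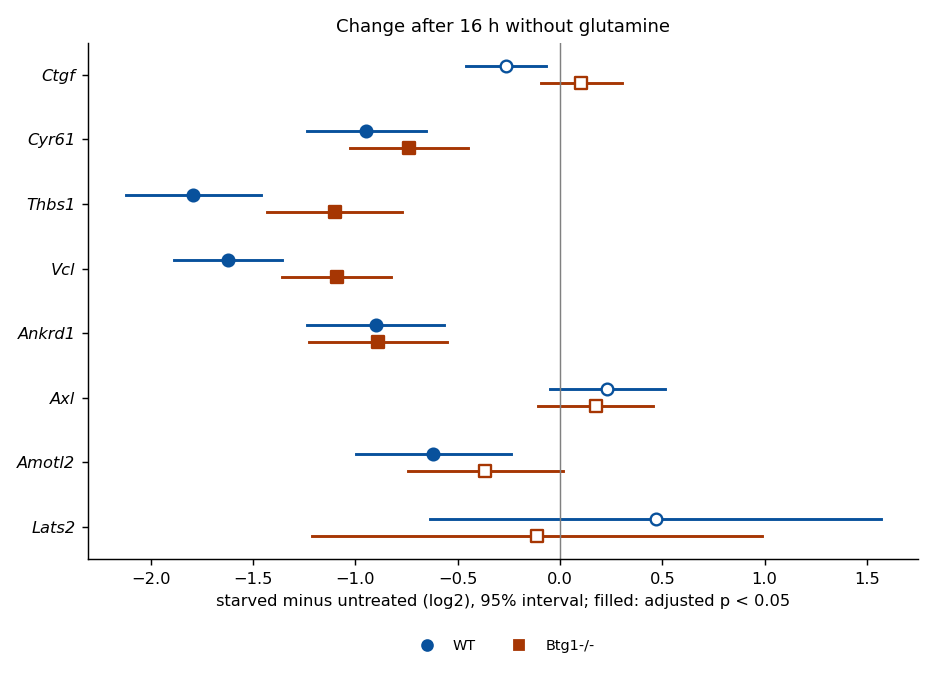
Log2 difference of starved from untreated cells (x axis) for the 8 tested genes in WT (circles) and *Btg1*-/- cells (squares), with 95% intervals from limma. Filled symbols passed an adjusted p of 0.05, which were 5 genes in WT and 4 in *Btg1*-/- cells, all below 0.

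The genotypes were then compared within each medium. In untreated cells 0 of the 8 genes passed the test, where 0.662% of all rows did (limma, 2 of the 8 at an unadjusted p under 0.05, *Ankrd1* and *Thbs1*, against 17.3% of rows). *Ankrd1* came nearest, higher in *Btg1*-/- cells by 0.79 ± 0.15 on the log2 scale (95% interval 0.45 to 1.12, 1.73-fold, limma adjusted p = 0.0549), and the arrays of the genotypes did not overlap. With arrays left out the *Ankrd1* difference ranged from 0.69 to 0.88, and whether it passed the threshold changed with the arrays left out. *Thbs1* was higher by 0.45 ± 0.15 (95% interval 0.12 to 0.78, adjusted p = 0.161), also without overlap of arrays. Arrays of *Btg1*-/- cells did not overlap with WT, on the higher side, in 22.6% of all rows. The other 6 differences lay between -0.16 for *Axl* and 0.15 for *Lats2*, and those of *Ctgf* (-0.05), *Cyr61* (-0.10), *Vcl* (0.00) and *Amotl2* (-0.08) were within 0.10 of zero.

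After starvation 2 of the 8 genes were higher in *Btg1*-/- than in WT cells and 0 were lower, where 1.61% of rows were higher and 0.638% lower. *Thbs1* was higher by 1.14 ± 0.15 on the log2 scale (2.20-fold, 95% interval 0.81 to 1.47, limma adjusted p = 0.0101). *Ankrd1* was higher by 0.80 ± 0.15 (1.74-fold, 95% interval 0.46 to 1.13, limma adjusted p = 0.0336), nearly the same size as in untreated cells. *Vcl* differed by 0.53 ± 0.12 (adjusted p = 0.0529) and *Ctgf* by 0.32 ± 0.09 (adjusted p = 0.104), and neither passed the limma test. Arrays of starved *Btg1*-/- cells lay above those of starved WT cells for *Thbs1*, *Ankrd1*, *Vcl*, *Ctgf* and *Amotl2*, 5 genes, against 22.1% of rows. They lay below for *Axl* and *Lats2*, 2 genes, against 27.3% of rows.

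The starved comparison rested on few arrays. The *Thbs1* difference missed the threshold without starved WT replicate 1 (1.01, adjusted p = 0.103), without starved *Btg1*-/- replicate 1 (0.98, adjusted p = 0.0814) and without both arrays of WT replicate 2 (1.27, adjusted p = 0.0521). The *Ankrd1* difference missed it without untreated WT replicate 1 or 2 (0.0553 and 0.0557), starved WT replicate 1 or 2 (0.172 and 0.136), or starved *Btg1*-/- replicate 1 or 2 (0.175 and 0.0517), and ranged from 0.58 to 1.02. The *Vcl* difference ranged from 0.46 to 0.61 with arrays left out, and whether it passed the threshold changed with the arrays left out. The median log2 difference of *Btg1*-/- from WT cells over 13 tested macrophage markers was 2.02 in untreated and 1.59 in starved cells. In untreated cells 0 of the 13 passed the test, where 0.662% of all rows did. In starved cells 1 of the 13, *C1qb*, was called higher, where 1.61% of all rows were. *Fcer1g* (-2.33 and -2.54) and *Itgam* (-0.02 and -0.63) had differences below 0, and these 3 markers were named after their values were seen. Without both arrays of *Btg1*-/- replicate 1, where the summed level of those markers was highest, the starved difference was 0.98 for *Thbs1* (adjusted p = 0.0470) and 0.58 for *Ankrd1* (adjusted p = 0.135). The *Btg1*-/- side of that comparison is 1 array, with a macrophage sum of 11.97 against 11.04 and 11.34 in starved WT, and the part of these markers in the differences was not tested. Of 11 fibroblast markers, 4 were higher in *Btg1*-/- than in WT cells after starvation, where 1.61% of all rows were. The median difference of the 11 was 0.73, and the part of these markers in the *Thbs1* and *Ankrd1* differences was not tested.

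Whether the response itself differed between the genotypes was tested as the difference of the 2 starvation differences. None of the 8 genes passed the limma test, nor did any of the 12691 rows (0.0%, and 0 by the methods' t-test after adjustment, with 803 rows at an unadjusted p under 0.05), while in limma 3 of the 8, and 6.42% of all rows, had an unadjusted p under 0.05. The 3 were *Thbs1*, with a difference in response of 0.69 ± 0.21 (95% interval 0.23 to 1.16, adjusted p = 0.709), *Vcl* with 0.53 ± 0.17 (0.16 to 0.90, adjusted p = 0.709) and *Ctgf* with 0.37 ± 0.12 (0.09 to 0.65, adjusted p = 0.711). In *Btg1*-/- cells the log2 difference of *Thbs1* was 61.4% of that in WT cells, that of *Vcl* 67.4%, that of *Amotl2* 58.8% and that of *Cyr61* 77.9%. For *Ankrd1* it was 98.9%, with a difference in response of 0.01 (95% interval -0.47 to 0.49). For *Axl* it was 75.3%, and for *Ctgf* (-39.4%) and *Lats2* (-24.1%) the signs were opposite. These percentages are point values without an interval. The remaining differences in response had 95% intervals that held zero. They were 0.26 for *Amotl2* (-0.28 to 0.79), 0.21 for *Cyr61* (-0.20 to 0.62), -0.06 for *Axl* (-0.46 to 0.34) and -0.58 for *Lats2* (-2.14 to 0.98). The 2 responses share no arrays, while each genotype comparison shares arrays with them.

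**Figure D4:**
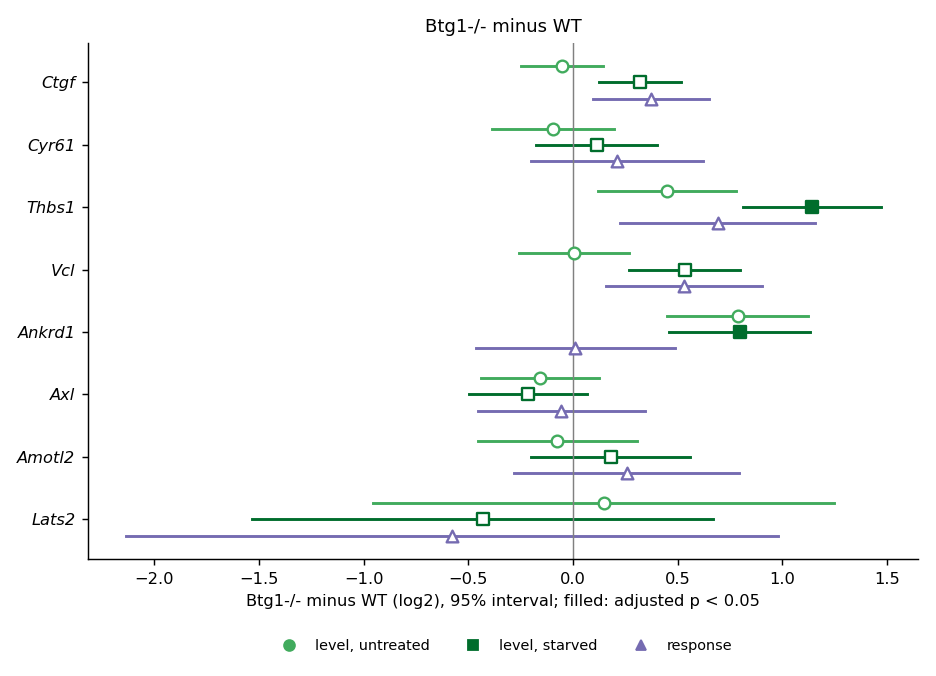
*Btg1*-/- minus WT on the log2 scale (x axis) for the 8 tested genes, as the level in untreated cells (circles), the level in starved cells (squares) and the starvation response (triangles), with 95% intervals from limma. The 2 filled squares, *Thbs1* at 1.14 and *Ankrd1* at 0.80, passed an adjusted p of 0.05.

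Other genes of the same pathways were read from lists, some of which share genes. Their counts stand against 11.6% of all rows that fell and 13.1% that rose in starved WT, and 7.24% and 8.44% in starved *Btg1*-/- cells. Among SRF and MRTF targets, 18 of 26 tested fell in starved WT and 15 in starved *Btg1*-/- cells, and 0 rose in either, with median log2 differences of -0.66 and -0.51. *Mylk*, the myosin light chain kinase of smooth muscle contraction, fell by 3.23 in WT cells (SE 0.25, limma adjusted p = 4.24e-05) and fell by 2.78 in *Btg1*-/- cells (adjusted p = 0.000242). *Tagln*, an actin-binding protein of contractile cells, fell in WT and *Btg1*-/- cells (log2 differences -2.29 and -1.57, adjusted p of 9.12e-06 and 0.000135), as did *Itga5*, the integrin subunit that binds fibronectin (-2.08 and -1.26, adjusted p of 0.000153 and 0.00443). *Fos*, an immediate early gene, fell by 1.71 in WT cells (adjusted p = 0.0169), and in *Btg1*-/- cells its difference was -0.77 (adjusted p = 0.282). In starved cells 4 of the 26 were higher in *Btg1*-/- than in WT cells and 0 were lower, where 1.61% and 0.638% of all rows were. *Tagln* was among the 4, higher by 0.69 (adjusted p = 0.0299). The count of falls was 11 in WT cells without starved WT replicate 2 (1 gene then rose). Over all omissions of arrays it was 11 to 19 in WT cells. In *Btg1*-/- cells it was 10 to 13, below the 15 of all arrays under every omission.

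Of 19 focal adhesion partners of vinculin, 8 fell in each genotype and 0 rose, with medians of -0.50 and -0.47. This list shares *Itga5*, *Actn1* and *Zyx* with the SRF and MRTF targets. Of these *Itga5* and *Actn1* fell in both genotypes and so count in both lists, while *Zyx* did not pass the test. The falls also included *Nedd9*, an adhesion scaffold (-1.87 and -1.18, adjusted p of 6.14e-05 and 0.00141), *Ilk*, the integrin-linked kinase (-1.33 and -1.15, 0.000129 and 0.000752), and *Actn4*, an actin crosslinker (-1.04 and -1.09, 0.00126 and 0.00207). Among starved cells, *Nedd9* was higher in the *Btg1*-/- genotype by 1.12 (adjusted p = 0.0146). Without both arrays of WT replicate 2, 5 of the 19 fell in WT cells.

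Of 19 other YAP and TEAD targets tested, 7 fell and 2 rose in starved WT cells (11.6% and 13.1% of all rows), and 5 fell and 2 rose in starved *Btg1*-/- cells (7.24% and 8.44% of all rows), with medians of -0.12 and -0.36. *Areg*, which encodes the EGF receptor ligand amphiregulin, rose by 3.43 and by 2.70 (adjusted p of 9.12e-06 and 5.74e-05). The other gene counted as rising, the forkhead factor gene *Foxf2*, was below background in untreated cells (means of 2.98 and 2.51) and passed the filter on low values through its starved levels alone (4.67 and 4.69), so no size is given for it. *Tgfb2*, a TGF-beta ligand, fell in both (-2.11 and -1.41, adjusted p of 0.000238 and 0.00419), as did *Birc5*, the survivin gene of dividing cells (-2.10 and -2.27, adjusted p of 0.000199 and 0.000403). Between starved genotypes 3 of the 19 were higher in *Btg1*-/- cells and 1 was lower, where 1.61% and 0.638% of all rows were. The 3 were *Tgfb2* by 1.32 (adjusted p = 0.0296) and, named after their values were seen, *Nuak1* by 1.41 (adjusted p = 0.00580) and *Tgm2* by 0.95 (adjusted p = 0.0184), and the lower one was *Areg* (log2 difference -1.46, adjusted p = 0.0101). *Tgm2* was higher by 0.95 in untreated *Btg1*-/- cells too (limma adjusted p = 0.0232). It was the only 1 of the 19 called between untreated genotypes, where 0.662% of all rows were. The number that rose was 1 in WT cells without starved WT replicate 1 or both arrays of WT replicate 2, and 1 in *Btg1*-/- cells without either untreated array, starved replicate 2 or both arrays of replicate 1.

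The Hippo pathway components, which include *Amotl2* and *Lats2*, showed no common direction, with medians of 0.11 in WT and 0.07 in *Btg1*-/- cells. Of 21 tested, 5 fell and 2 rose in WT cells, where 11.6% and 13.1% of all rows did. In *Btg1*-/- cells 1 fell and 3 rose, where 7.24% and 8.44% of all rows did. *Yap1* itself read 10.03 and 10.20 in untreated WT and 9.11 and 9.43 in starved WT cells, a fall (log2 difference -0.85, SE 0.15, adjusted p = 0.00253). In *Btg1*-/- cells it read 10.01 and 10.29 before and 9.90 and 9.68 after starvation, a difference of -0.36 that missed the threshold (adjusted p = 0.142). *Wwc1*, the scaffold KIBRA that activates LATS kinases, rose by 1.64 and by 1.39 (adjusted p of 0.00928 and 0.0308), and *Stk4*, an upstream kinase, rose by 0.61 and by 0.57 (0.0129 and 0.0269). *Fat4*, an atypical cadherin counted among the falls in WT cells, was above background only in untreated cells (means of 4.67 in WT and 3.36 in *Btg1*-/-) and below it in starved cells (2.31 and 2.59), so no size is given for it. With single arrays or a replicate left out, 2 to 5 of the 21 fell and 0 to 3 rose in WT cells, and 0 or 1 fell and 0 to 3 rose in *Btg1*-/- cells, so these counts rest on single arrays of either genotype.

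Of 11 other matricellular genes, 3 fell and 1 rose in starved WT cells, and 2 fell and 0 rose in starved *Btg1*-/- cells, with medians of -0.56 and -0.30. *Wisp2*, the CCN family member now called *Ccn5*, fell in WT and *Btg1*-/- cells (log2 differences -3.26 and -1.17, adjusted p of 8.78e-05 and 0.0283), as did *Smoc1*, a calcium-binding matrix protein (-3.27 and -2.01, adjusted p of 0.000163 and 0.00428). *Sparc*, a collagen-binding protein, fell by 0.80 in WT cells (adjusted p = 0.00143) and differed by -0.30 in *Btg1*-/- cells (adjusted p = 0.145), while *Spp1*, the osteopontin gene, rose by 0.49 in WT cells (adjusted p = 0.00329) and differed by 0.01 in *Btg1*-/- cells (adjusted p = 0.959). In starved cells 4 of these 11 were higher in *Btg1*-/- than in WT cells and 1 was lower, where 1.61% and 0.638% of all rows were. The 4, in the same direction as *Thbs1*, included *Wisp2* by 2.29 (adjusted p = 0.0112), *Smoc1* by 1.71 (adjusted p = 0.0390) and *Sparc* by 0.74 (adjusted p = 0.0249). The lower one was *Spp1* (log2 difference -0.45, adjusted p = 0.0381). Without *Btg1*-/- replicate 1 (untreated, starved or both) or starved *Btg1*-/- replicate 2, 1 gene fell in *Btg1*-/- cells, and without both arrays of WT replicate 2 none rose in WT cells. Around *Axl*, both ligands fell in both genotypes, *Gas6* (-1.17 and -0.69, adjusted p of 0.000198 and 0.00624) and *Pros1* (-0.89 and -0.63, adjusted p of 0.00167 and 0.0178), while the related receptors *Tyro3* and *Mertk* did not pass the test. Among starved cells, *Gas6* was higher in the *Btg1*-/- genotype by 1.06 (adjusted p = 0.00736).

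**Figure D5:**
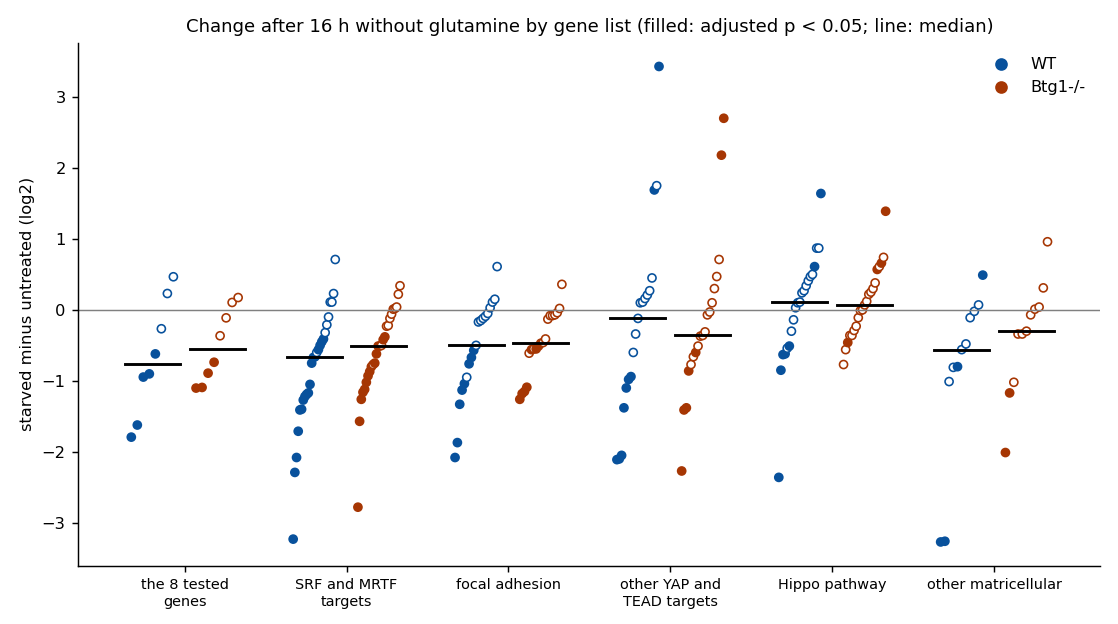
Log2 difference of starved from untreated cells (y axis) for every tested gene of 5 lists and for the 8 tested genes, WT in blue and *Btg1*-/- in orange, with 1 point per gene and a black line at the median. Filled points passed an adjusted p of 0.05, and the medians of SRF and MRTF targets are -0.66 and -0.51.

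The genes closest in pattern were sought by the root mean square difference of the 8 array values, each row centred on its own mean, which measures likeness in direction and size alike. For *Ctgf* the closest rows were *Vdac2* (0.06), *Ddx54* (0.06), *Dis3l* (0.06), *Zcchc17* (0.08) and *Rab3gap1* (0.08), against a median of 0.39 over all tested rows. Rows that vary little, as *Ctgf* does, lie close to each other by this measure. Among the other members *Axl* (0.26) and *Amotl2* (0.27) had the smallest difference from *Ctgf* and *Thbs1* (0.78) the largest. *Axl* also varied little (SD 0.18), and its log2 difference in starved WT cells was 0.23 where that of *Ctgf* was -0.27. A small value here is therefore not likeness in direction. For the mean of the 8 tested genes the closest other rows were *Trim47* (0.05), *Tmsb10* (0.05), *Tmem132a* (0.06), *Btbd1* (0.06) and *Gltp* (0.07), against a median of 0.49. Among the members *Amotl2* (0.17) and *Cyr61* (0.20) had the smallest difference from the mean and *Lats2* (0.61) the largest. Each member is itself part of that mean, and the measure also depends on how much a row varies. *Thbs1*, with an SD of 0.85, differed from the mean by 0.55.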

How the data were processed

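Expression was measured in 8 MEF samples on the Illumina MouseRef-8 v2 platform. The authors normalized the data by RMA in ArrayStar and deposited log2 values per gene name and array. The submitters' processing notes name GenomeStudio 2011.1, and no source used here gives the probe annotation or genome build. A second deposited table holds group means and the authors' fold ratio between untreated and starved cells. It was used only for checking means, which differed by at most 5e-06 over 18109 shared rows. Rows with a group mean of at least 3 in any group were kept (12691 of 18132). A model of the 4 group means was fitted to all 8 arrays with limma 3.58.1 in R 4.3.3 (with trend, residual df 4, prior df 5.48). Tests were two-sided, with Benjamini-Hochberg adjustment across rows kept and a threshold of 0.05. The SE and 95% interval come from this fit. The p-values set each difference against a spread between arrays that is estimated per row over all 4 groups and moderated towards an intensity trend. They therefore also depend on this variance model. With 2 arrays a group, the number of arrays limits the precision. The script was tested on simulated data.

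The members and lists were chosen with earlier results of these data known. All 9 members are described. Up to 4 genes per list are named, those with the largest average response in absolute size among those called in at least 1 genotype, and the 5 rows nearest in pattern. Alternatives were a replicate block, other filters on low values, scalings, variance models, samples and tests, arrays left out, and the methods' FC of 3. The t-test, called the methods' t-test below, is of the kind the methods name for other assays, as they name none for the arrays.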

Additional observations from a re-analysis of the deposited data

How the results depend on the processing

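In starved against untreated WT cells, 3 to 6 members fell with arrays left out, 0 by the methods' t-test and 2 by an FC of 3. Over all rows these counts were 1205 to 3307, 1 and 547. The median over members was -0.84 to -0.63 with arrays left out and -0.90 with a stricter filter, a mean of 5 or more over all arrays, which leaves out *Lats2*. In *Btg1*-/- cells 4 members fell under every omission, 2 without an intensity trend, 0 by the t-test and 0 by FC. Over all rows 769 to 1785 were called with arrays left out, 942 without a trend, 1209 on the comparison's own arrays, 1 by the t-test and 274 by FC. The median was -0.70 to -0.50 with arrays left out and -0.74 with the stricter filter.

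Between untreated genotypes, 0 or 1 member was higher with arrays left out and 1, *Ankrd1*, with the stricter filter. Over all rows 1 to 500 were called with arrays left out, 144 with the stricter filter, 0 without a trend, 1 on own arrays, 0 by the t-test and 176 by FC. The median ranged from -0.0639 to 0.111. Between starved genotypes, 0 to 3 members were higher with arrays left out, and 0 without a trend, by the t-test or by FC. Over all rows 9 to 444 were called with arrays left out, 0 without a trend, 1 by the t-test and 157 by FC, and the median with the stricter filter was 0.32. The median difference in response ranged from 0.0873 to 0.322 with arrays left out.

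The differences that changed sign were small or near background. With arrays left out, *Lats2* ranged from -0.58 to 1.21 (WT response), -0.38 to 0.16 (*Btg1*-/- response), -0.59 to 0.89 (untreated) and -1.32 to 0.46 (difference in response). In untreated cells *Ctgf* ranged from -0.154 to 0.0496, *Vcl* from -0.17 to 0.17 and *Amotl2* from -0.27 to 0.12, and *Vcl* was -0.0130 with arrays centred on their median. *Cyr61* ranged from -0.0397 to 0.265 in starved cells. For the difference in response *Ankrd1* ranged from -0.21 to 0.23 and *Axl* from -0.23 to 0.11. The *Ctgf* call in WT cells was gained with the stricter filter (adjusted p = 0.0265), a second quantile normalization (0.0395), median centring (0.0391) and own arrays (0.0403). The *Vcl* call between starved genotypes was gained with the stricter filter (0.0355), quantile normalization (0.0464) and own arrays (0.0414), and that of *Ankrd1* was lost on own arrays (0.0508). Without a trend the calls of *Amotl2* in WT cells (0.0581), *Cyr61* and *Ankrd1* in *Btg1*-/- cells (0.0540 and 0.0511) and *Thbs1* and *Ankrd1* between starved genotypes (0.162 and 0.195) were lost. Apart from the medians with the stricter filter, which count fewer genes, the cause was not tested.

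The labels give the replicates a number and no pairing. Deviations of same-numbered arrays correlated at 0.12 within WT and 0.24 within *Btg1*-/- cells and at 0.02 to 0.11 between genotypes, and *Eif2s3y* in WT and the macrophage sums in *Btg1*-/- cells followed the number, a hint from the data and not the design. With the replicate block, 424 rows (1 member, *Ankrd1*, adjusted p = 0.0187) were called between untreated genotypes, 572 between starved genotypes and 3 for the difference in response. The block also gained *Ctgf* in WT cells (0.0363) and *Vcl* between starved genotypes (0.0127). With it 9 fibroblast markers and 8 other YAP and TEAD targets fell in starved *Btg1*-/- cells. No member has a second row in the table, and the FC rule and own arrays could not be applied to the difference in response.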

Other observations

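Of 7 tested endothelial markers 0 were called in any comparison. The log2 of the summed unlogged levels of all 8 endothelial markers in the table was 8.04 to 9.50 over the 8 arrays. Of 4 tested cardiac and skeletal muscle markers, *Des*, which encodes the intermediate filament protein desmin, fell by 1.78 in starved WT (limma adjusted p = 0.00131) and fell by 1.52 in starved *Btg1*-/- cells (adjusted p = 0.00588), and 4 of the 10 in the table were below background on all arrays. The median log2 difference of the 4 was -0.91 in starved WT and -0.98 in starved *Btg1*-/- cells, against 0.03 over all rows. For 5 epithelial markers it was -1.0 and -0.39, with 1 call in WT cells, *Krt8*, whose means lay below background in both starved groups, and for 4 neural markers it was 0.15 and -0.38, with 1 call in WT cells.

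Fibroblast markers included 3 collagen genes. *Col1a1* fell by 1.48 in starved WT (limma adjusted p = 8.73e-05) and fell by 0.81 in starved *Btg1*-/- cells (adjusted p = 0.00401), and was higher by 0.89 in *Btg1*-/- than in WT cells after starvation (adjusted p = 0.0209). *Col3a1* fell in both (-2.25 and -1.15, adjusted p of 0.000294 and 0.0175) and was higher by 1.22 in starved *Btg1*-/- cells (adjusted p = 0.0490). *Col1a2*, named after its values were seen, fell in both (-1.28 and -0.63) and differed by 0.59 between starved genotypes, which missed the threshold (adjusted p = 0.0655). *Lum*, a small proteoglycan of the matrix, also fell in both (-2.02 and -1.82, adjusted p of 0.00391 and 0.0120), and *S100a4* fell by 2.01 in WT cells (adjusted p = 0.0109) and differed by -0.86 in *Btg1*-/- cells (adjusted p = 0.260). None of these genes passed the test of the difference in response.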
